A study of Homo sapiens with 6 samples.

Results

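Glycolysis breaks glucose down to pyruvate in the cytosol, in a chain of reactions that each have their own enzyme, and lactate dehydrogenase then turns pyruvate into lactate. The enzymes of the lower part of the chain are among the most abundant proteins of dividing cells, and their genes are often used as reference genes in expression assays. Leukaemia cells in culture take up glucose and release lactate even when oxygen is plentiful. The 10 genes described here encode enzymes of the chain, without the mutase step, and are given in the order of their reactions: HK2, GPI, PFKL, ALDOA, TPI1, GAPDH, PGK1, ENO1, PKM and LDHA. They were chosen by name, and each was looked up among the transcripts that the count tables list, by GENCODE symbol. Of the 37192 genes that could be named, 8 were members of this group. ENO1, with 16 annotated transcripts, and PKM, with 25, had none of those transcripts matched in the tables, so no value is given for either, and their levels are not analysed here.

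All libraries came from untreated K562 cells, a human line derived from a chronic myelogenous leukaemia and grown as a single line, so the groups differ only in the assay. PRO-seq was done in 2 libraries and maps RNA polymerases that are engaged in transcription, so that its density over a gene follows the production of new RNA. Total RNA-seq after removal of ribosomal RNA was done in 4 libraries and measures the RNA present at steady state. At steady state the ratio of RNA-seq to PRO-seq is proportional to the half-life of the RNA, provided that polymerases move at like speeds over the genes compared. The ratio was taken here as the relative half-life. It has no unit, and it was put on a log2 scale with the median mRNA at 0.

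The RNA-seq libraries held 5732780 to 9002746 counts on transcription units (TUs), and the PRO-seq libraries 6993816 and 7245632. Levels are given in TPM, the abundance of each transcript relative to all transcripts of the library after counts are divided by length: the exons for RNA-seq, and the whole span less 1000 bp for PRO-seq. The erythroid markers GATA1, TAL1 and KLF1 stood at 155, 79.7 and 186 TPM in RNA-seq, and the fetal and embryonic globins HBG1, HBG2 and HBE1 at 1828, 6287 and 3104 TPM. HBZ was lower, at 13.2 TPM. Of the markers of other cell types, CD3E, ALB and COL1A1 lay below 0.5 TPM and MYOD1 and INS at 0, and the epithelial marker EPCAM was well above them at 120 TPM. RNA-seq replicates 1 and 3, and likewise 2 and 4, were closer to each other than other pairs were, with a chi-square per degree of freedom of 1.12 against 1.74 to 2.11. These pairs were kept as separate libraries, and summing them left the calls of the 6 members tested as they were. The study's methods say that the cells of all libraries were grown in a single flask, so n counts libraries of 1 culture. The p-values and SE measure the spread between these libraries only. In edgeR's fit this spread is estimated partly from all TUs tested, and not from the libraries of each gene alone.

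Transcripts of TPI1, GAPDH and LDHA were abundant and had long relative half-lives. PFKL had as long a relative half-life as TPI1 with less RNA, GPI had a shorter one that was still above the median mRNA, and HK2 sat near the middle of all mRNAs. Past the thresholds of the half-life estimate, more than 10 TPM in PRO-seq and more than 1 TPM in RNA-seq, were 6 of the 8 members matched: HK2, GPI, PFKL, TPI1, GAPDH and LDHA. Of these, 5 had a relative half-life above the median mRNA and 1, HK2, below it (edgeR's quasi-likelihood test, adjusted p under 0.05 over all 9927 TUs tested). The background is high, since 40.4% of all TUs tested were called above the median mRNA and 50.0% below it. Among the mRNAs tested, the class to which all members belong, 45.4% were above and 44.9% below. The median log2 relative half-life of the 6 members was 2.36, against quartiles of -1.06 and 1.08 for the 8733 mRNAs past the thresholds. The same 5 members were above when the difference was tested against 2-fold and 0 were below, where 21.5% and 29.2% of TUs were called. With the canonical span of each gene as the length for the same counts, 7 members could be tested, PGK1 among them. Of these, 6 were above and 0 below, against 41.1% and 49.6% of TUs. Without thresholds on TPM, 7 were above and 0 below, against 32.2% and 36.8%. The 8 members matched took 0.516 to 0.544% of the RNA-seq counts of a library and 0.0466 and 0.0490% of the PRO-seq counts. Counts cover exons in RNA-seq and whole spans in PRO-seq. Of TPM, where counts are divided by length, the members took 0.637 to 0.669% and 0.0988 and 0.123%.

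HK2, hexokinase 2, adds the phosphate that traps glucose in the cell. Its counted transcript lies at chr2:75061254-75120486 (GRCh37, GENCODE annotation), with 18 exons, and shares no base with another TU on its strand. RNA-seq gave 18.8, 17.9, 20.6 and 17.1 TPM in replicates 1 to 4 (18.6 ± 1.5, SD, n = 4), and PRO-seq gave 36.9 and 32.2 TPM (34.5 ± 3.31, SD, n = 2). HK2 was the only one of the members past the thresholds with fewer TPM in RNA-seq than in PRO-seq, and the libraries of the assays did not overlap. The median over mRNAs past the thresholds was also lower in RNA-seq, 31.2 TPM against 47.5 TPM in PRO-seq. A gene with fewer TPM in RNA-seq can therefore still lie near the median mRNA in relative half-life. Its log2 relative half-life was -0.26 ± 0.077 (SE), or 0.836 times the median mRNA, with an adjusted p of 0.00261 in edgeR's test, at percentile 43.5 among mRNAs. This call rested on a single library: without PRO-seq replicate 1 the value was -0.14 with an adjusted p of 0.161. It also depended on which TUs were fitted and on the lengths given to them. Without the TPM thresholds HK2 lay above the median, at 0.40. In the fit with canonical spans it was -0.09 with an adjusted p of 0.238 in edgeR's test. The counted span of HK2 is itself the canonical one, 59233 bp, so its own length did not change there. Values are centred on the median mRNA of each fit.

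GPI, glucose-6-phosphate isomerase, turns glucose phosphate into fructose phosphate. It lies at chr19:34855645-34893318 with 19 exons in the counted transcript. RNA-seq gave 145, 133, 144 and 129 TPM (138 ± 8.25, SD, n = 4), and PRO-seq 80.9 and 93.3 TPM (87.1 ± 8.79, SD, n = 2). All RNA-seq libraries were above both PRO-seq libraries. The log2 relative half-life was 1.30 ± 0.058 (SE), 2.46 times the median mRNA, with an adjusted p of 1.9e-19, at percentile 78.9. GPI shares 13.9% of its counted PRO-seq bases with ENSG00000266953, an overlapping gene model on the same strand that had 213 PRO-seq counts and 0 RNA-seq counts. Leaving the shared bases out of the length gave 1.19 ± 0.057.

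PFKL is the liver-type subunit of phosphofructokinase, which makes the committed step of the chain. It lies at chr21:45719934-45747259, and the counted transcript, with 25 exons, is annotated as a target of nonsense-mediated decay although it spans nearly all of the gene. RNA-seq gave 152, 146, 155 and 144 TPM (149 ± 5.20, SD, n = 4), and PRO-seq 41.7 and 48.3 TPM (45.0 ± 4.64, SD, n = 2). PFKL and GPI could not be ordered in RNA-seq, where their ranges overlapped, but in PRO-seq both PFKL libraries were lower than both of GPI. The log2 relative half-life of PFKL was 2.37 ± 0.064 (SE), 5.15 times the median mRNA, with an adjusted p of 3.6e-25. With 25 exons in a transcript of ordinary length it had many splice junctions per kilobase, at percentile 94.3 among mRNAs, where the median mRNA has 3.08.

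ALDOA, aldolase A, splits the sugar into triose phosphates, and it had almost no counts. Its counted transcript at chr16:30075595-30081735 held 2, 2, 3 and 1 counts in the RNA-seq libraries and 0 in both PRO-seq libraries, a count of 0 allowing up to 3 counts or 1.12 TPM. All of its counted PRO-seq bases and 90.3% of its exon bases lie inside another same-strand gene model, ENSG00000285043, which runs from 30064472 to 30081735 and had 63 RNA-seq and 233 PRO-seq counts. The tables hold a class of ambiguous reads, those that fall on more than a single TU and are given to none. Whether this accounts for the low counts of ALDOA was not tested. Across the genome, mRNA TUs with more than 100 RNA-seq counts had at most 2 PRO-seq counts in 125 of 135 cases (92.6%) where all their bases were shared on the same strand, in 3 of 250 cases (1.2%) where all were shared on the opposite strand only, and in 17 of 5696 cases (0.299%) where none were shared.

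TPI1, triose phosphate isomerase, interconverts the products of aldolase and is a short gene, at chr12:6976283-6980112 with 7 exons. RNA-seq gave 1349, 1313, 1333 and 1304 TPM (1325 ± 20.3, SD, n = 4), so the 4 libraries lay close together. PRO-seq gave 305 TPM in replicate 1 and 496 TPM in replicate 2 (400 ± 135, SD, n = 2), from 223 and 370 counts. The PRO-seq libraries thus differed by 1.63 times, a log2 difference of 0.70 that was at percentile 98.7 of the absolute differences among mRNAs and the largest among the 1061 mRNAs, TPI1 included, with PRO-seq counts within 20% of its own. The log2 relative half-life was 2.36 ± 0.077 (SE), 5.14 times the median mRNA, with an adjusted p of 5.9e-23. This SE comes from edgeR's fit, which draws on the spread of other TUs. The SD of TPI1 between its own PRO-seq libraries was 0.497 on the log2 scale. It ran from 2.07 to 2.74 when libraries were left out in turn, all above the median mRNA.

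GAPDH, glyceraldehyde phosphate dehydrogenase, carries out the oxidation step that yields NADH. It had the most RNA of the members and, of those tested, the longest relative half-life. It lies at chr12:6643683-6647537 with 9 exons. RNA-seq gave 3292, 3127, 3262 and 3048 TPM (3182 ± 115, SD, n = 4), and PRO-seq 306 and 341 TPM (324 ± 25, SD, n = 2). All 4 RNA-seq libraries were above those of every other member, whereas in PRO-seq GAPDH lay within the range of TPI1. The log2 relative half-life was 3.93 ± 0.055 (SE), 15.3 times the median mRNA, with an adjusted p of 1.8e-32, at percentile 99.0. GAPDH and TPI1 have only 2855 and 2830 bp counted in PRO-seq, at percentiles 5.51 and 5.42 among mRNAs. Among the 629 mRNAs past the thresholds with 2000 to 5000 bp counted, the median log2 relative half-life was 0.18, and GAPDH was at percentile 96.8 and TPI1 at percentile 84.9.

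PGK1, phosphoglycerate kinase 1, makes the first ATP that the chain gains. RNA-seq gave 830, 805, 828 and 828 TPM (823 ± 11.9, SD, n = 4), close to LDHA. PRO-seq gave only 9.15 and 8.69 TPM (8.92 ± 0.323, SD, n = 2), just under the threshold of 10 TPM, although it had 1002 counts in all, more than GAPDH with 483. The transcript listed for PGK1, chrX:77166236-77382446, spans 216211 bp where the canonical transcript spans 25048 bp, 8.63 times less, and 64.4% of the counted bases are shared with other gene models. Among mRNAs past the thresholds, 1.31% have a span over 5 times the canonical one, and 10.8% share any of these bases. The main sharer is ATP7A, a copper transporter gene upstream of PGK1, whose listed span lies wholly inside that of PGK1 and which had 1511 RNA-seq but only 3 PRO-seq counts.

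The long span left PGK1 out of the main test and makes its value depend on the length. With 500 bp taken off for PRO-seq in place of 1000 bp the TU passed the threshold, at a log2 relative half-life of 7.12 ± 0.049 (SE). With shared bases left out of the length it was 5.78 ± 0.048. With the canonical span, it was 4.11 ± 0.046, 17.3 times the median mRNA, with an adjusted p of 2.7e-34 in edgeR's test. Without the TPM thresholds it was 7.82. These 4 estimates were all above the median mRNA but differed by up to 3.71 on the log2 scale, so the size is not settled by these tables. With the canonical span PGK1 stood beside GAPDH, which had 4.10 ± 0.055 under the same lengths. These lengths were chosen after the data had been seen. They were applied to the same counts, taken over the listed span, so 4.11 is not a ratio measured over the canonical gene alone.

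LDHA, lactate dehydrogenase A, makes lactate and returns NAD+ to the GAPDH step. It lies at chr11:18416110-18429972 with 8 exons. RNA-seq gave 903, 885, 909 and 897 TPM (899 ± 10.2, SD, n = 4), and PRO-seq 209 and 207 TPM (208 ± 1.35, SD, n = 2). These were among the closest replicates of the group. The log2 relative half-life was 2.75 ± 0.043 (SE), 6.72 times the median mRNA, with an adjusted p of 1.9e-31, at percentile 94.8. A short sense lncRNA model inside the gene took 61 RNA-seq counts and 0 PRO-seq counts.

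In RNA-seq the order of levels was GAPDH, TPI1, LDHA, PGK1, PFKL, GPI, HK2 and ALDOA, and only the neighbours PFKL and GPI overlapped in their libraries. In PRO-seq it was TPI1, GAPDH, LDHA, GPI, PFKL, HK2, PGK1 and ALDOA, and only TPI1 and GAPDH overlapped. These orders are per length. The listed span of PGK1 is 216211 bp, where the canonical transcript spans 25048 bp. ALDOA shares 100% of its counted PRO-seq bases and 90.3% of its exon bases with another gene model. How far the places of PGK1 in PRO-seq and of ALDOA in both assays come from these annotations was not tested. By CPM, counts scaled to the library with no division by length, the PRO-seq order was turned over: GPI ranked 1, LDHA 2, HK2 3, PGK1 4, TPI1 6 and GAPDH 7. For the relative half-life of the 6 members past the thresholds, every pairing of an RNA-seq with a PRO-seq library was taken, which makes 8 values a gene. Of these 6, GAPDH, from 3.8 to 4.06, lay above the other members and HK2, from -0.49 to 0.00, below them. PGK1, under the PRO-seq threshold, ran from 7.08 to 7.23 with its full counted span. GPI, from 1.10 to 1.48, lay between HK2 and the rest. PFKL, from 2.21 to 2.51, and LDHA, from 2.70 to 2.78, did not overlap, but both overlapped or touched the wide range of TPI1, from 2.03 to 2.78. The median SD between replicates was 0.163 on the log2 scale for the members and 0.126 for mRNAs.

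**Figure D1:**
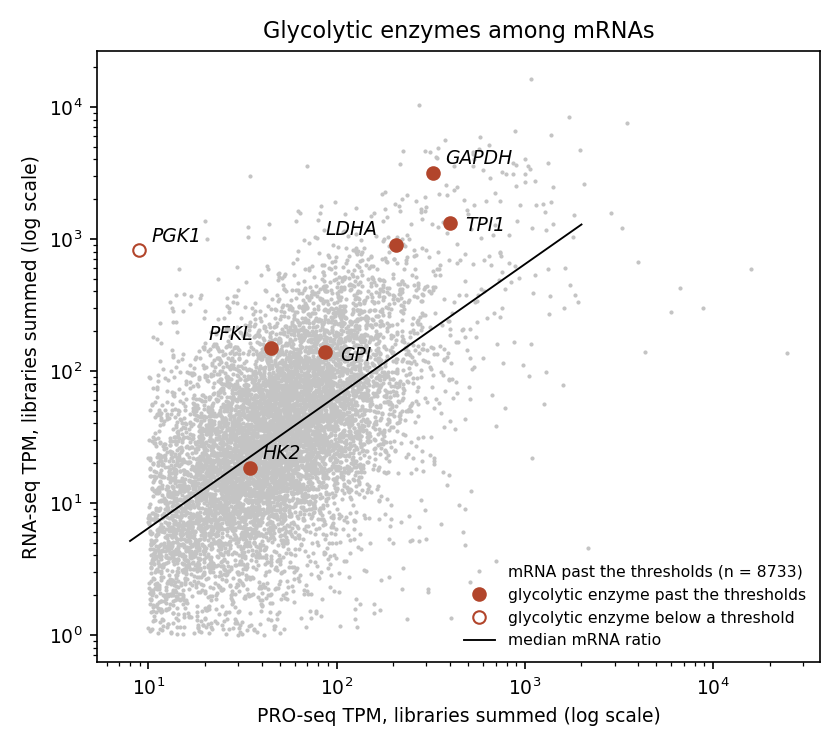
RNA-seq TPM against PRO-seq TPM (both log axes, counts summed over libraries) of the 8733 mRNAs past the thresholds (grey) and of the members (filled circles, with PGK1, under the PRO-seq threshold, as an open circle), with the median mRNA ratio as a line. HK2 lies just under the line, GPI, PFKL, TPI1, LDHA and GAPDH lie above it, and PGK1 lies to the left of the grey points, which all have more than 10 TPM in PRO-seq.

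GAPDH has many annotated pseudogenes, copies that could take or lose reads, and the other members have 6 (LDHA) or fewer. The annotation holds 65 GAPDH pseudogenes, of which 27 were counted, and these had 262 RNA-seq counts in all, 0.471% of the GAPDH counts. The leading one was GAPDHP72 with 37, 31, 20 and 22 counts in RNA-seq replicates 1 to 4 and 0 in PRO-seq. LDHAP3 had 239 RNA-seq counts, 0.874% of those of LDHA, and the counted copies of TPI1 and PGK1 had 106 and 117, or 0.334% and 0.435% of their parents. Over all members, 22 of the 41 counted copies had RNA-seq counts and 5 had PRO-seq counts, with 737 and 31 counts. Reads that match a gene and a copy equally well were not assigned. Of all reads, 24.5 to 28.0% in RNA-seq and 2.73 and 2.79% in PRO-seq were not unique, so the values of GAPDH and other members with copies are uncertain by an amount that was not tested.

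The promoters of glycolytic genes are known targets of hypoxia-inducible factor and of MYC, whose recognition sequences include ACGTG and CACGTG, respectively. The 250 bases before the start of each gene were taken from the RefSeq promoter sequences (GRCh38.p14), where 10 of 10 members matched, and ACGTG was searched on both strands. It was found in 6 of the 10, HK2, GPI, ALDOA, GAPDH, PGK1 and LDHA, and in 21.0% of the 14622 promoters of counted mRNAs. CACGTG, which contains ACGTG on both strands, was in GAPDH and LDHA alone among the members and in 7.93% of mRNA promoters. TATAAA was in 0 of the 10 and in 8.57% of mRNA promoters, and CCAAT was in 3, HK2, PGK1 and PKM, and in 34.6%. Matches follow for GAPDH and LDHA, which hold the longer motif. They also follow for HK2, the lowest of the members tested in relative half-life, and for PGK1, which was outside the main test. The PGK1 window lies before the RefSeq start. The counted PGK1 transcript starts at chrX:77166236 (GRCh37), where the listed span of ATP7A also starts. The window need not be the promoter of the counted PGK1 transcript. Capitals mark ACGTG on either strand, or CACGTG, and all windows are on the plus strand.
GAPDH, chr12:6535173-6535198: tctgcggggtCACGTGtcgcagagga
LDHA, chr11:18394368-18394393: actcccagcgCACGTGgagcagtctg
LDHA, chr11:18394466-18394491: gcccgactcaCACGTGggttcccgca
HK2, chr2:74834069-74834093: tgggcgtgcgCACGTcactgatccg
PGK1, chrX:78104036-78104060: ggcgtgccggACGTGacaaacggaa
The capitals begin 81 bases before the start of GAPDH, 185 and 87 before that of LDHA, 48 before that of HK2 and 202 before that of PGK1. HK2 and PGK1 each hold 2 matches and LDHA 3. PFKL, TPI1, ENO1 and PKM hold none in this window. Whether the motif goes with transcription or with relative half-life was not tested. A match is a run of letters and not a measured site.

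The mRNAs nearest to GAPDH in log2 level over the 6 libraries were ribosomal protein genes: RPL19, RPL39 and RPS3, at Euclidean distances of 0.652, 0.699 and 0.763. RPS3 had 4088 TPM in RNA-seq and 343 TPM in PRO-seq, and a log2 relative half-life of 4.21, by summed counts. Those nearest to HK2 were CDK13, NIPAL3 and MMGT1, at 0.171, 0.214 and 0.234, all with 17.8 to 18.8 TPM in RNA-seq. The likeness is one of level in the same libraries, and 19031 mRNAs were compared.

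Isozymes carry out the same reactions from other genes, often in other tissues. Of 23 isozyme and mutase genes listed, 22 were matched, 8 could be tested, 7 were above the median mRNA and 1 below, with a median of 1.00. The shares were 87.5% and 12.5%, against 40.4% and 50.0% over all TUs. HK1, the hexokinase bound to mitochondria in most tissues, had 585.6 TPM in RNA-seq and 71.2 in PRO-seq, and a log2 relative half-life of 3.68 ± 0.038 (SE), 3.17 with the canonical span. HK1 thus stood above HK2 in both assays and in the ratio, a difference that was not tested. The muscle and platelet phosphofructokinases PFKM and PFKP had 2.50 and 1.86. PGAM1, the mutase between PGK1 and the enolases, had 0.72, and BPGM, which makes the bisphosphoglycerate that lowers the oxygen affinity of haemoglobin, 1.27. The enolases ENO2 and ENO3 had 0.63 and -0.88, and the liver and red cell pyruvate kinase PKLR had 0.61.

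Some isozymes could not be judged. ALDOC had 124 TPM in RNA-seq and 0 counts in PRO-seq, where 0 allows up to 2.03 TPM, and all of its counted PRO-seq bases are shared with another gene model on its strand. LDHB had 0 RNA-seq counts and 109 PRO-seq counts, and 64.1% of its exon bases are shared. HK3 had 4 RNA-seq counts against 163 in PRO-seq and shares no base, but with 0.0954 TPM in RNA-seq it was under the threshold and was not tested.

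The next lists hold genes that bring fuel in, send lactate out or set the pace. Of 9 transport genes, 5 were tested, with 2 above and 3 below the median mRNA and a median of -0.40, shares of 40% and 60% that are near those over all TUs. The glucose transporters SLC2A1, SLC2A3 and SLC2A4 were below, at -0.40, -0.97 and -2.29, and the lactate transporter SLC16A1 and its partner BSG were above, at 1.43 and 3.26. Of 12 regulators, 6 were tested, with 2 above, 4 below and a median of -0.81. These shares of 33.3% and 66.7%, from 6 genes, stand beside 40.4% and 50.0% over all TUs. PFKFB2, HIF1A and PFKFB4 had the highest values, 1.72, 0.60 and -0.43, and MYC, PDK1 and PFKFB3 the lowest, -1.18, -1.20 and -1.20. With only shared bases left out, HIF1A, which shares 25.4% of its counted PRO-seq bases, was at 0.27. With the canonical span as the length for the same counts, PFKFB2, HIF1A and PFKFB4 were at 1.05, 0.39 and -0.27. PFKFB3 was lower than before in that fit, at -2.51. MYC and PDK1, whose counted spans are the canonical ones, were at -1.01 and -1.03 in that fit. PFKFB genes make or remove the fructose bisphosphate that activates phosphofructokinase, PDK1 shuts off pyruvate entry into mitochondria, and MYC and HIF1A are transcription factors.

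Of 18 genes of the branches that leave glycolysis, 16 were matched and 13 tested, with 11 above and 2 below and a median of 1.42. The shares were 84.6% and 15.4%, against 40.4% and 50.0% over all TUs. TALDO1 and PGD of the pentose phosphate pathway and PDHB of pyruvate dehydrogenase were highest, at 3.35, 2.39 and 2.27. PSPH of serine synthesis was at 0.50, and PGLS at -0.32 and the glycogen synthase GYS1 at -1.69 were below. The call of PGLS was lost in the fit with canonical spans (-0.15, adjusted p of 0.179, edgeR), although its counted span is the canonical one, 9640 bp. In the TCA cycle, which burns the acetyl groups made from pyruvate, 15 of 18 genes were tested, with 13 above, 1 below and a median of 1.17. The shares there were 86.7% and 6.67%. FH, SDHB and SUCLG1 were highest, at 3.64, 3.40 and 2.97. SDHC was at 0.40 and IDH3G, below the median, at -0.29, and DLST was at -0.06 and did not pass the test (adjusted p of 0.426, edgeR). Some of these calls depended on the lengths in the fit. With canonical spans, edgeR gave IDH3G -0.13 (adjusted p of 0.235), CS 0.07 (0.256, from 0.81) and IDH3A 0.04 (0.784, from 1.58), so that none of the 3 passed. IDH3G itself spans 8747 bp, close to its canonical 8608 bp. CS, with 48.5% of its counted PRO-seq bases shared, was already at -0.05 (adjusted p of 0.450, edgeR) with only shared bases left out. The median of the glycolytic members, 2.36, was thus above that of each of these lists, but the lists were chosen with earlier results known, and no test was made of the difference.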

How the data were processed

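The authors deposited whole-number counts of reads per transcript for 4 total RNA-seq and 2 PRO-seq libraries of K562 cells. The submitters' processing notes name cutadapt, HISAT2, HTSeq and GRCh38; their versions, and whether counting used strand, are not stated there or in the methods. Rows that name no TU (66.5 to 68.6% of all in RNA-seq, 86.5 and 88.6% in PRO-seq) were left out. Of 42371 transcripts listed, 37339 (88.1%) were matched to GENCODE v44lift37, on GRCh37, which gave symbols, lengths and positions. Lengths were the exons for RNA-seq and the span less 1000 bp for PRO-seq. Other lengths were put in place of these without a new count of reads. The counts were tested with edgeR 4.0.16 in R 4.3.3 (quasi-likelihood test, TMM, length offsets, no covariate), in TUs past the TPM minimum of each assay (10 for PRO-seq, 1 for RNA-seq), centred on the median mRNA, with Benjamini-Hochberg adjustment over 9927 TUs. On simulated counts of these TUs, 86% of 200 changed by 1 log2 unit were recovered, with 5 false calls. All other TUs were simulated at a single common ratio, whereas in the data 40.4% were called above and 50.0% below. The simulation therefore does not give the recovery or the false calls of the data. The members, lists, tests and rule for named genes were chosen with earlier results of these data known: all members, isozymes past the thresholds, the 3 highest and 3 lowest of each other list, and the 3 mRNAs nearest to the highest and lowest member. HK3, ALDOC, LDHB, SLC16A3 and SLC2A14 were named after their values were seen. Alternatives were DESeq2 1.42.0, library totals, other thresholds and lengths, a 2-fold test, a replicate block, close pairs summed, CPM in place of TPM for the order of levels, and each library left out. Limits for a count of 0 (3 counts) cover counting error only. Some markers listed for the check of the cell line are not reported here.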

Additional observations from a re-analysis of the deposited data

Results flagged for a closer look

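In 54 genes with 4 RNA-seq libraries each, the lowest and highest library were compared with the others by Dixon's test. PGK1 in replicate 2 had 804.9 TPM where the other libraries had 827.8 to 829.6, and PFKFB4 in replicate 4 had 18.59 TPM where the others had 21.66 to 21.99. In both, the gap takes up more of the group's range than Dixon's critical value at 95% allows. Chance flags about 1 in 20 groups, so 2 of 54 is no more than chance gives.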

How the results depend on the processing

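The 5 members above the median mRNA stayed above it under every alternative run. The 1 below, HK2, was not called below without the TPM thresholds (0 members, HK2 then at 0.40, reversed), in the test against a 2-fold difference (0) and with the canonical span (0), and leaving out libraries in turn gave 0 to 1, with 0 without PRO-seq replicate 1; at an unadjusted p under 0.05 the count was 0 in each of these edgeR fits too, and DESeq2 gave 1. The members' median of 2.36 became 2.54 with 500 bp removed for PRO-seq, 2.99 without thresholds and 2.53 with the canonical span, where PGK1 joined, and ran from 2.17 to 2.59 on leaving out libraries. Without thresholds all members tested rose, TPI1 from 2.36 to 3.02, because the median mRNA is then taken over more TUs. Of the 32 genes tested in the isozyme, transport, regulator and branch lists, 22 were above and 10 below the median mRNA. These were 68.75% and 31.25%, against 40.4% and 50.0% of all TUs. In the 2-fold test 17 of the 32 were above and 5 below, where 21.5% and 29.2% of all TUs were called. On leaving out libraries in turn, 22 were above and 8 to 10 below. Over all TUs, 4009 were called above and 4959 below, 6634 and 7595 of 20631 without thresholds, and 2138 and 2897 in the 2-fold test. Replicate numbers are only numbers here: RNA-seq and PRO-seq differences between replicates 1 and 2 correlated at -0.0115 over 9839 TUs. With the replicate block, calls were 3920 above and 4858 below, and 5 and 1 among the members. Library totals in place of TMM say nothing on stability, since values are centred afterwards. The strand setting and the polymerase speed over each gene were not tested.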
